A study of Mus musculus with 8 samples.

Results

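The Janus kinases and the STAT factors (signal transducers and activators of transcription) carry the signals of interferons and of many other cytokines from the cell surface to the nucleus. In macrophages grown from mouse bone marrow (bone marrow-derived macrophages, BMDMs), 9 genes of these families were followed, out of 54532 genes counted. They were chosen as members of these families, with earlier results of these data known: Stat2, Stat3, Stat4, Stat5a, Stat5b, Stat6, Jak1, Jak2 and Tyk2. All 9 passed the filter on low counts and were among the 14591 genes tested.

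A cytokine that binds its receptor brings the Janus kinases on the receptor chains together, and these phosphorylate one another and the receptor. STAT proteins dock there, are phosphorylated in turn and enter the nucleus as dimers that bind DNA. Type I interferon signals through the kinases JAK1 and TYK2, and the complex ISGF3, to which STAT2 and its DNA-binding partner IRF9 belong, then switches on the interferon-stimulated genes. In macrophages STAT3 is best known for the response to IL-10 and IL-6, STAT5A and STAT5B for that to GM-CSF, and STAT6 for that to IL-4 and IL-13.

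Polyadenylated RNA was sequenced from 8 libraries in 4 groups of 2. WT BMDMs came from wild-type mice and Trex1-KO BMDMs from Trex1-/- mice, which lack an exonuclease that degrades cytosolic DNA and so show activity of the DNA-sensing cGAS-STING pathway. The mice were 6 to 8 weeks old, the marrow was grown in medium conditioned by L929 cells, and WT and Trex1-KO cells received the vehicle DMSO. The groups Trex1-KO+H151 and Trex1-KO+SN-011 were Trex1-KO BMDMs given one of the STING antagonists H151 or SN-011, and the incubation lasted 12 h. The labels give 500 nM for H151 and no dose for SN-011, for which the study's methods name the same dose as for H151. No WT cells were given an antagonist. The SN-011 libraries were registered apart from the other 6, so a difference between those deposits cannot be told apart from the treatment. Trex1 was absent from the whole body and not from macrophages alone, and the comparisons of antagonist with Trex1-KO hold within that genotype. The study calls its duplicates independent experiments, but the labels do not say whether the libraries of a group came from separate animals or cultures. The p-values below measure the spread between these libraries, which may be partly technical.

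Library totals ran from 11845470 to 17284863 counts, and between 20185 and 21127 genes had a count. Trex1 itself had 0 counts in all 8 libraries, WT included: all 1147 of its exon bases lie within exons of Atrip, so its 0 counts say nothing of the knockout. Atrip itself had 192 and 257 counts in WT, 859 and 1067 in Trex1-KO, 676 and 850 under H151, and 934 and 639 under SN-011, so all 6 Trex1-KO libraries stood apart from WT at this locus. That difference goes with the labels of genotype and is no measure of Trex1. The 8 macrophage markers were detected in every library, with a summed level, mostly Lyz2, between 30092 and 32363 CPM, a unit in which TMM factors put all libraries on 1 scale of depth. Within that sum Fcgr1 averaged 233 CPM in WT, 513 CPM in Trex1-KO, 363 CPM under H151 and 366 CPM under SN-011, and Cd68 788 CPM in WT and 1033 to 1071 CPM in the other groups. All 5 fibroblast markers were detected too, and their summed level, mostly Col1a1 and Col1a2, was 2069 and 2265 CPM in the WT libraries, 848 and 1045 CPM in those of Trex1-KO, 1089.6 and 1199.6 CPM under H151 and 919.7 and 1105 CPM under SN-011. Of 7 neutrophil markers, 3 had at least 3 counts in every library. The summed level of all 7 was 6.91 and 8.17 CPM in the WT libraries, 46.9 and 64.8 CPM in those of Trex1-KO, 57.4 and 60.4 CPM under H151 and 59.9 and 76.8 CPM under SN-011, with the defining marker Ly6g at 0 to 3 counts. Of 6 T cell markers only Cd4 was counted throughout, at a mean of 33.6 CPM in WT and 20.98, 19.5 and 18.7 CPM in Trex1-KO, Trex1-KO+H151 and Trex1-KO+SN-011, and Cd3e, Cd3d, Cd3g, Cd8a and Lck had at most 5 counts. The 6 dendritic cell markers summed to 1.90 and 2.80 CPM in WT and to 2.93 to 3.92 CPM in the 6 Trex1-KO libraries. The 5 NK cell markers summed to 0 CPM in WT and at most 0.336 CPM elsewhere, the 4 B cell markers to at most 0.791 CPM and the 4 erythroid markers to at most 1.91 CPM. The summed fibroblast, neutrophil and dendritic cell markers and Cd4 thus moved with the genotype, though Dcn went against the fibroblast list, and the dendritic list was split, with Xcr1 and Clec9a higher and Flt3 and Zbtb46 lower in the mean of Trex1-KO than of WT, and their part in the differences from WT was not tested.

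The start of a gene holds the short DNA elements through which STAT complexes act, so the windows from 250 bases before to 50 bases after each annotated start were searched on both strands (RefSeq, GRCm38.p6). ISGF3 binds an interferon-stimulated response element, searched here as GAAA, any 2 bases and GAAA again. STAT dimers bind TTC and GAA with 3 bases between them, and STAT6 prefers a gap of 4 bases. Among 32851 windows of 300 bases over all genes, 3.44% held the response element, 8.3% the STAT motif with a gap of 3 and 6.95% that with a gap of 4. All 9 genes had a window, 12 windows in all. The response element was found at Stat2 and at the second start of Stat4 and in no other window of these genes, the motif with a gap of 3 in none, and that with a gap of 4 at Stat2 only. The sequences of Stat2 and of the second Stat4 start are printed because they hold matches, which stand in capitals, and those of Stat6 and Jak2 because these genes, along with Stat2, were called in Trex1-KO cells and hold no match. The windows are chr10:128270248-128270547 for Stat2, chr1:52007990-52008289 for Stat4, chr10:127642736-127643035 for Stat6 and chr19:29251553-29251852 for Jak2, all on the plus strand and written 5′ to 3′.
Stat2: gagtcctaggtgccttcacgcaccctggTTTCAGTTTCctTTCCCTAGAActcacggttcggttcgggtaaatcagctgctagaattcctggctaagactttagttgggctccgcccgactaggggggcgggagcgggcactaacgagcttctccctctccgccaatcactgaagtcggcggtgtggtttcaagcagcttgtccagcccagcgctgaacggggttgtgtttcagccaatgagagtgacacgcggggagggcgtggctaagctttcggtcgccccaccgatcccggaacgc
Stat4, second start: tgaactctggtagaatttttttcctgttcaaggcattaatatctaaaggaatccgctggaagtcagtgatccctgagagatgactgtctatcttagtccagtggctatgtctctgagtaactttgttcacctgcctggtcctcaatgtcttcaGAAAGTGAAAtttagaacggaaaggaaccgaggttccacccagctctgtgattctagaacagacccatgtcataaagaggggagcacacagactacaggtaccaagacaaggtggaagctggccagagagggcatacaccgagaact
Stat6: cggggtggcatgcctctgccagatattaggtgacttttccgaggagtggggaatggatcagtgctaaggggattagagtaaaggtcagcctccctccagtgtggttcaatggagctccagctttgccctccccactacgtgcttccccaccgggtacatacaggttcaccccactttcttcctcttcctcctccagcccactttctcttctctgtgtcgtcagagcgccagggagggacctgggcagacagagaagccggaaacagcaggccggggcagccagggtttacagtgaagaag
Jak2: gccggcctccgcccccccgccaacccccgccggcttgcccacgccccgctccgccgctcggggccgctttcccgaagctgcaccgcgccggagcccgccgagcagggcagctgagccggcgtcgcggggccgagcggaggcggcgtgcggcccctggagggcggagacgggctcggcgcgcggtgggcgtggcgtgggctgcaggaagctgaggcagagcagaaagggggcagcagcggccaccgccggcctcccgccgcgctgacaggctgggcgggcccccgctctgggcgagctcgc
In the Stat2 window the element reads TTTCAGTTTC, the element on the other strand, 222 bases before the RefSeq start. TTCCCTAGAA, the motif with a gap of 4, follows 210 bases before that start. In the Stat4 window GAAAGTGAAA lies 97 bases before its RefSeq start. The RefSeq starts of Stat2 and Jak2 lie upstream of the GENCODE gene starts given with the genes below, so distances from those would be larger. A match of letters is a description and does not show that a factor binds there.

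Stat2 changed more than any other of the 9 genes, and it did so in each comparison with Trex1-KO cells (ENSMUSG00000040033, chr10:128270559-128292849, plus strand). It encodes the STAT that works mainly in type I and type III interferon signalling. Stat2 stood at 118 and 109 CPM in WT cells, 350.4 and 322 CPM in Trex1-KO cells, 159 and 166 CPM under H151, and 168 and 173 CPM under SN-011. Each Trex1-KO library stood above every other library, each library given an antagonist stood between them and WT, and no values of different genotype or treatment overlapped. Group means were 113 ± 6.01, 336 ± 20.2, 162 ± 4.62 and 171 ± 3.45 CPM (SD, n = 2 each). The rise in Trex1-KO over WT was 2.97-fold, 1.57 ± 0.07 on the log2 scale (SE, edgeR adjusted p = 3.24e-09).

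**Figure D1:**
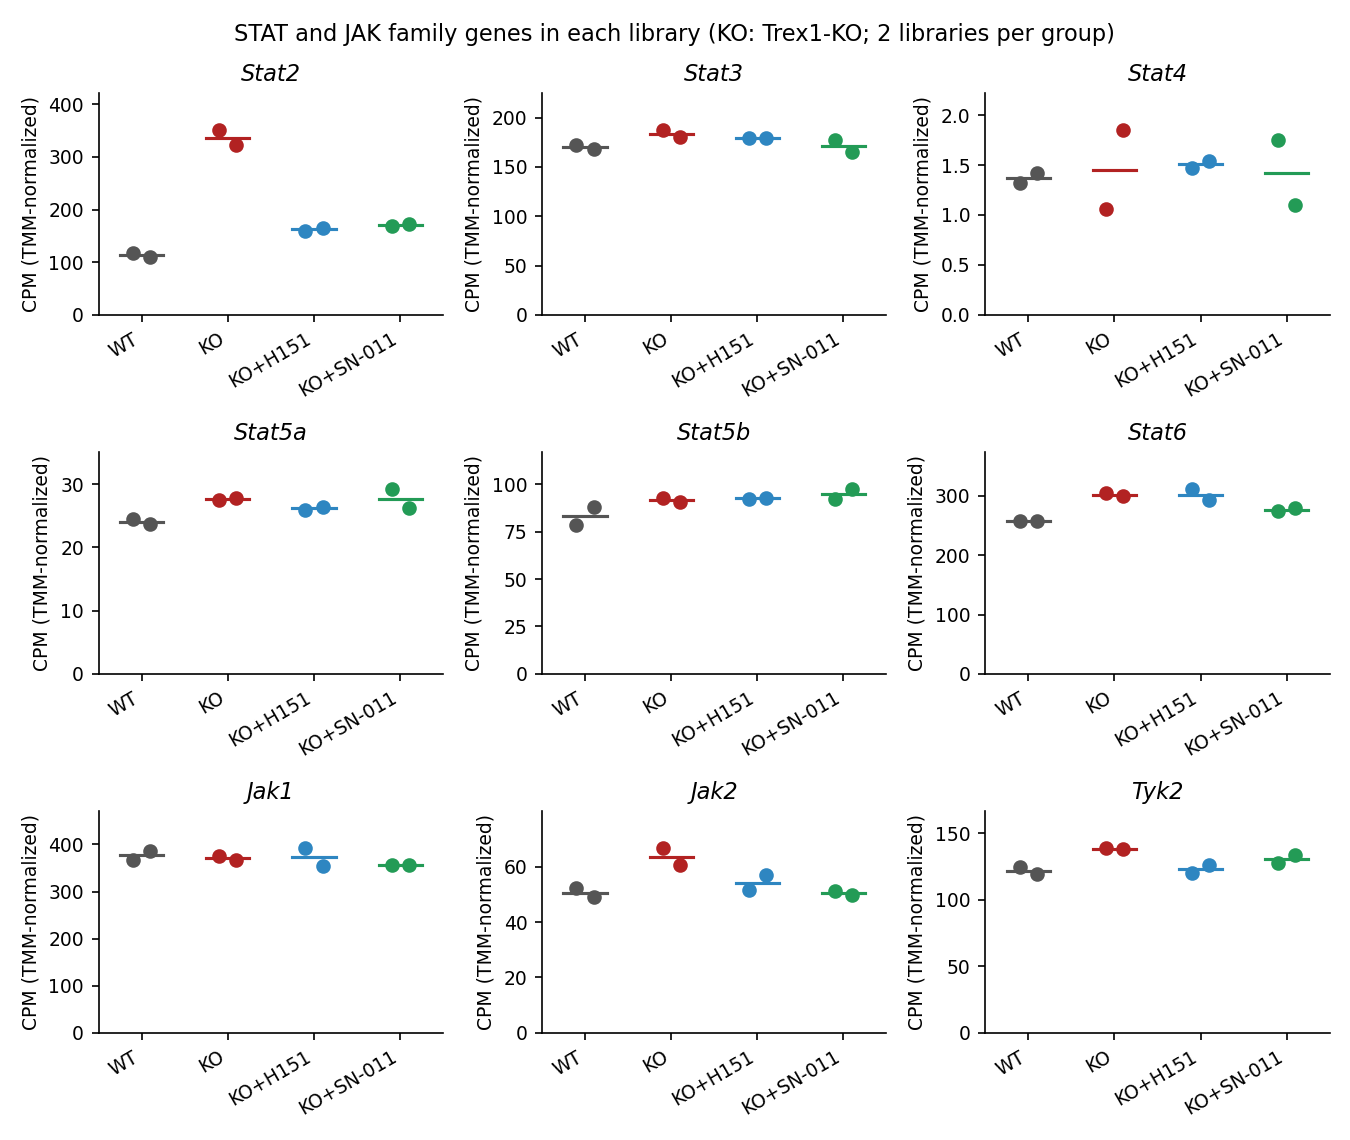
Level of each gene in CPM (TMM-normalized, vertical axis from 0, a scale of its own in each panel) in the 4 groups, with a point for each library and a bar at the group mean. Stat2 stood at 322 and 350.4 CPM in Trex1-KO against 109 to 173 CPM in the other 6 libraries, and the panels of Jak1 and Stat3 are close to flat.

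Relative to Trex1-KO, Stat2 fell by 1.05 ± 0.06 on the log2 scale under H151 (edgeR adjusted p = 6.33e-06). The fall under SN-011 was 0.98 ± 0.06 (adjusted p = 1.04e-05). These left 0.483 and 0.508 of the Trex1-KO level. Both antagonist groups remained above WT. The log2 difference from WT was 0.52 with H151 (adjusted p = 0.000147) and 0.59 with SN-011 (adjusted p = 5.19e-05). The antagonists did not differ from each other in Stat2 beyond the spread: SN-011 minus H151 was 0.07 on the log2 scale, with a 95% interval from -0.07 to 0.21 (adjusted p = 0.778). All comparisons with Trex1-KO share its 2 libraries and all comparisons with WT share those 2, so their values are set side by side and are not independent of each other. In bulk RNA, a change in the number of cells of one type and a change in RNA per cell cannot be told apart.

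The call on Stat2 held in 12 of 12 alternative analyses in each comparison in which it was called, leaving out any single library included. When a call also required a 1.5-fold change, the difference of H151 from WT no longer counted. The log2 change ran from 1.48 to 1.63 against WT, from -1.11 to -0.99 with H151 and from -1.04 to -0.91 with SN-011.

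Stat6, the STAT of IL-4 and IL-13 signalling, differed by a small amount (ENSMUSG00000002147, chr10:127642986-127660957, plus strand). It had 258 and 258 CPM in the WT libraries, 306 and 299 CPM in those of Trex1-KO, 311 and 293 CPM after H151, and 275 and 279 CPM after SN-011. All 6 Trex1-KO libraries were above both WT libraries. Stat6 was called in Trex1-KO against WT, higher by 0.23 ± 0.06 on the log2 scale (edgeR adjusted p = 0.0108). It was also called under H151 against WT, higher by 0.23 ± 0.06 (adjusted p = 0.0157). The difference of Trex1-KO+SN-011 from WT was 0.10 and was not called (adjusted p = 0.304). With H151 the level was at that of Trex1-KO, the log2 difference being -0.00201 with an interval from -0.12 to 0.12. The first of these calls was lost without WT replicate 1, WT replicate 2 or Trex1-KO replicate 1, with adjusted p between 0.0853 and 0.1004, and the second without either WT library or Trex1-KO+H151 replicate 1. Both were also lost with total counts in place of TMM factors (adjusted p = 0.107 and 0.0801), and the second in a fit of only those groups (adjusted p = 0.0511).

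Jak2 encodes a kinase on the receptors of GM-CSF, IL-3, growth hormone and interferon gamma (ENSMUSG00000024789, chr19:29251828-29313080, plus strand). Among the 3 Janus kinases followed it had the largest difference in every comparison but SN-011 against WT, where it had the smallest. It stood at 52.2 and 49.0 CPM in WT cells, 66.6 and 60.7 CPM in Trex1-KO cells, 51.5 and 56.9 CPM under H151, and 51.3 and 49.9 CPM under SN-011. Both Trex1-KO libraries lay above the other 6. The rise over WT was 0.33 ± 0.08 on the log2 scale (edgeR adjusted p = 0.0121), and it was not called without WT replicate 2 or Trex1-KO replicate 1 (adjusted p = 0.142 and 0.143) or with total counts (adjusted p = 0.0537).

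The Jak2 difference of SN-011 from Trex1-KO was -0.33 ± 0.08, of the same size as the rise but just short of the threshold (adjusted p = 0.0547). Over the alternatives its adjusted p ran from 0.00824 to 0.401, and 4 of 12 called it. With H151 the difference from Trex1-KO was -0.23 ± 0.08 (adjusted p = 0.284). Neither antagonist group was called against WT, where the log2 differences were 0.10 with H151 and 0.00047 with SN-011, the latter with an interval from -0.18 to 0.18.

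Tyk2, which with JAK1 serves the type I interferon receptor, was also highest in Trex1-KO, without a call (ENSMUSG00000032175, chr9:21104068-21131243, minus strand). It had 125 and 119 CPM in the WT libraries, 138 and 138 CPM in those of Trex1-KO, 119.9 and 126 CPM after H151, and 127 and 133 CPM after SN-011. The Trex1-KO libraries again lay above the other 6. The log2 difference was 0.18 ± 0.06 in Trex1-KO against WT (adjusted p = 0.0572), -0.17 with H151 (adjusted p = 0.295) and -0.09 with SN-011 (adjusted p = 0.615).

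Jak1, the kinase shared by interferon receptors and by most receptors of the IL-2 and IL-6 families, was called in no comparison (ENSMUSG00000028530, chr4:101152367-101265282, minus strand). Its WT libraries read 368 and 387 CPM, its Trex1-KO libraries 375 and 367 CPM, those with H151 392 and 355 CPM, and those with SN-011 355 and 356 CPM. The SN-011 libraries lay below those of WT and Trex1-KO, and the WT, Trex1-KO and H151 libraries overlapped. The log2 difference of Trex1-KO from WT was -0.03, with a 95% interval from -0.15 to 0.10. The interval with H151 was -0.12 to 0.14 and with SN-011 -0.19 to 0.07, both against Trex1-KO.

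Stat3, Stat5a, Stat5b and Stat4 were called in no comparison. Stat3 (ENSMUSG00000004040, chr11:100885098-100939540, minus strand) stood at 172 and 169 CPM in WT cells, 187 and 180.4 CPM in Trex1-KO cells, 179 and 179 CPM under H151, and 177 and 165 CPM under SN-011. Its Trex1-KO libraries were the highest, yet the log2 difference from WT was 0.11, with an interval from -0.02 to 0.24 (adjusted p = 0.270).

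Stat5a and Stat5b lie next to each other and to Stat3 on chromosome 11 and encode near-identical proteins of GM-CSF signalling. Stat5a (ENSMUSG00000004043, chr11:100859351-100885169, plus strand) had 24.4 and 23.7 CPM in the WT libraries, 27.5 and 27.8 CPM in those of Trex1-KO, 25.9 and 26.4 CPM after H151, and 29.1 and 26.2 CPM after SN-011. Stat5b (ENSMUSG00000020919, chr11:100780731-100850724, minus strand) stood at 78.7 and 88.2 CPM in WT cells, 92.8 and 90.5 CPM in Trex1-KO cells, 92.1 and 93.0 CPM under H151, and 92.2 and 97.3 CPM under SN-011. For both genes all 6 Trex1-KO libraries were above both WT libraries, with log2 differences of Trex1-KO from WT of 0.20 (adjusted p = 0.196) and 0.13 (adjusted p = 0.240). The copies could be told apart by most reads, since 3.46% of the 150-base windows of Stat5b and 0.18% of those of Stat5a occur in the other gene. Stat3 and Stat5a overlap by 72 exon bases on opposite strands.

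Stat4, which carries IL-12 signals and is best known in T cells and NK cells, was close to the limit of what these libraries could measure (ENSMUSG00000062939, chr1:51987148-52107189, plus strand). It had 18 and 21 counts in WT cells, 14 and 28 in Trex1-KO cells, 18 and 23 under H151, and 30 and 13 under SN-011, or 1.06 to 1.85 CPM. The 2 libraries of Trex1-KO and of Trex1-KO+SN-011 each spanned the values of WT and Trex1-KO+H151, whose libraries were close together and did not overlap, and the interval of the log2 difference from WT in Trex1-KO ran from -0.76 to 0.95, so a change of less than that was not detectable at this depth. Of its 150-base windows 22.8% occur in Gm28177, and 26.68% of its exon bases are shared with that gene or Gm3940, which had at most 5 and 1 counts. The T cell marker genes Cd3e, Cd3d, Cd3g and Cd8a were at 0 to 3 counts in the same libraries.

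**Figure D2:**
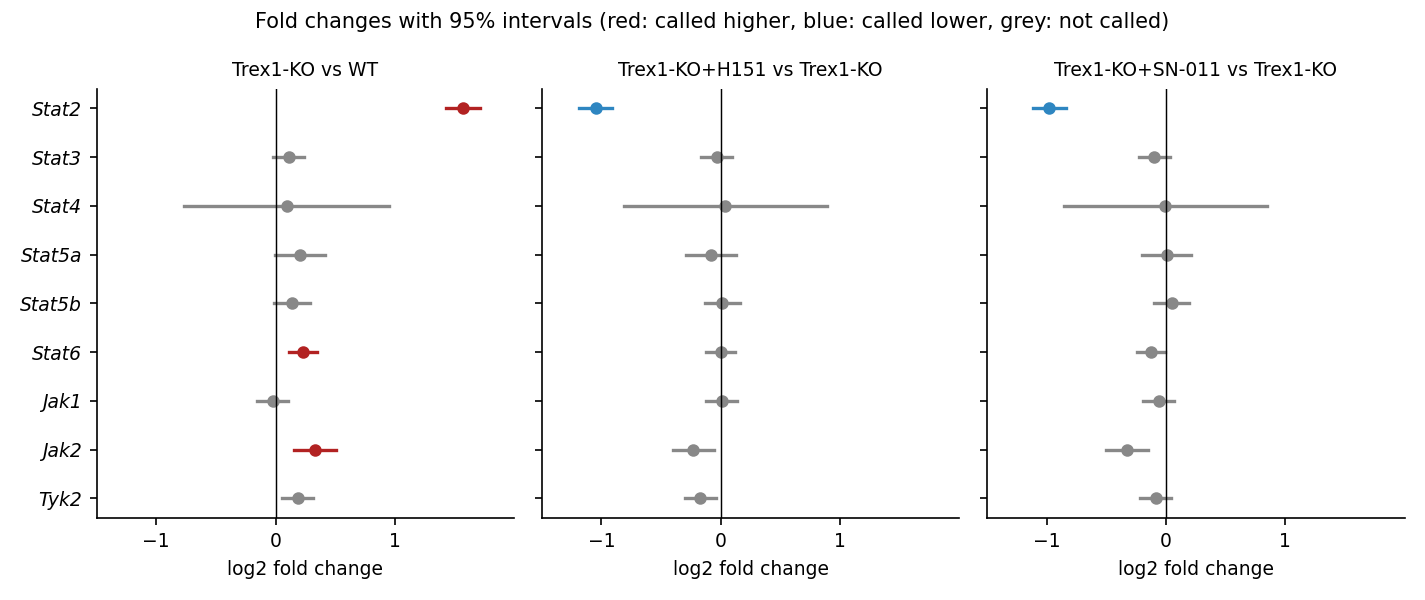
Log2 fold change (horizontal axis) of each gene in 3 comparisons, with the 95% interval of the edgeR fit as a line, in red where called higher, in blue where called lower and in grey where not called. Stat2 is the one gene far from 0 in every panel (1.57, -1.05 and -0.98), and Stat4 has by far the widest intervals.

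Counted together, 3 of 9 genes rose in Trex1-KO against WT and 0 fell, where 16.4% of all tested genes were called, 9.27% higher and 7.11% lower. The libraries of the groups did not overlap for 7 of 9 genes, against 56.1% of all tested genes. The median log2 difference of the 9 genes was 0.18, against -0.00196 over all genes tested. With total counts in place of TMM factors 1 of 9 was called, Stat2, and the median of all genes moved by -0.08, within the size of the smaller differences.

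With H151 against Trex1-KO, 1 of 9 genes was called, lower, where 2.23% of all genes were called, 0.384% higher and 1.84% lower. The libraries did not overlap for 5 genes, all lower, against 35.4% of all genes. The 8 genes without a call had log2 differences between -0.23 and 0.04. With SN-011 against Trex1-KO, again 1 of 9 was called, lower, where 2.33% of all genes were called, 0.11% higher and 2.22% lower, and the libraries did not overlap for 6 genes, all lower, against 43.4% of all genes. Here the 8 others lay between -0.33 and 0.05.

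Between the antagonists 0 of 9 genes were called by edgeR, where 0.158% of all genes were called, and 1 of 9 had an unadjusted p under 0.05. This was Stat6, lower with SN-011 by a log2 difference of -0.12, with an interval from -0.24 to -0.00408 (adjusted p = 0.557). DESeq2 and the exact test also called 0 of 9. Against WT, 2 of 9 genes were called higher with H151, Stat2 and Stat6, where 11.8% of all genes were called and 6.79% higher, and 1 of 9 with SN-011, Stat2, where 11.7% were called and 6.18% higher. Stat5b was 0.18 above WT with SN-011 (adjusted p = 0.127) and 0.15 with H151 (adjusted p = 0.214).

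Levels of different genes were compared per kb of exon, as the union of all annotated exons. In WT cells Stat6 came first at 58.6 CPM per kb, followed by Jak1 at 52.2, Stat2 at 19.1, Stat3 at 17.9, Tyk2 at 17.7, Stat5b at 15.1, Jak2 at 10.1, Stat5a at 3.37 and Stat4 at 0.355 CPM per kb. Each of these stood apart from the next in both libraries, except that Stat3 and Tyk2 overlapped. In Trex1-KO cells Stat2 rose to 56.7 CPM per kb and took the second place, below Stat6 at 68.7 and above Jak1 at 51.3. With the antagonists it returned to the third place, at 27.4 CPM per kb with H151 and 28.8 with SN-011. The order of the upper genes depended on the length used, since per kb of the longest transcript Jak1 at 76.9 led in WT, ahead of Stat6 at 68.3, and Stat3 at 28.2 stood above Stat2 at 25.8.

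**Figure D3:**
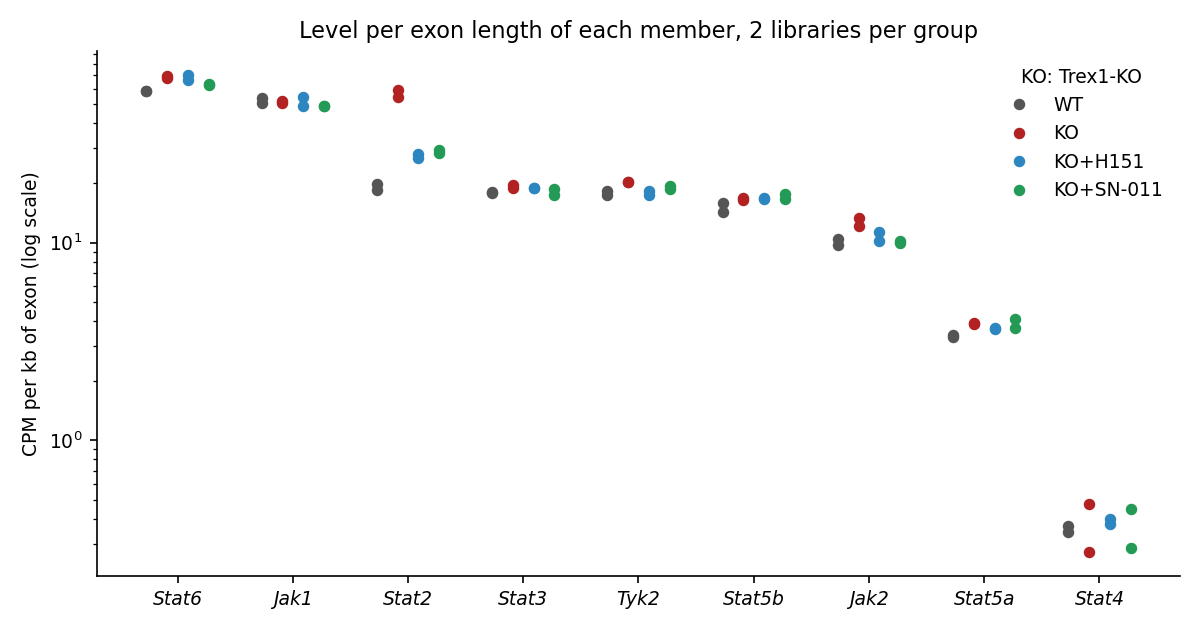
Level per exon length (CPM per kb of exon, logarithmic vertical axis) of the 9 genes, ordered by their WT mean, with a point for each of the 8 libraries coloured by group. Stat2 moved from 19.1 CPM per kb in WT to 56.7 in Trex1-KO, next to Jak1 and Stat6, and Stat4 lay near 0.4 in every group.

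The shares of the STAT genes followed here shifted accordingly. Of the summed level per kb of the 6 STAT genes followed here, Stat2 made up 17.3% and 16.1% in WT cells, 35.0% and 33.5% in Trex1-KO cells, 19.6% and 20.8% under H151, and 21.7% and 22.2% under SN-011. Stat6 held 51.2% and 51.3%, 41.1% and 42.0%, 51.6% and 49.6%, and 47.8% and 48.2% in the same order. The share of Stat6 was lowest in Trex1-KO, although its own level there was above WT. A rise in Stat2 by itself lowers the shares of the others. Per kb of the longest transcript, Stat2 held 36.8% and 35.3% in Trex1-KO cells and Stat6 37.4% and 38.2%.

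The genes whose pattern over the 8 libraries was most like that of Stat2 were sought among the 7794 genes whose log2 CPM averaged 4 or more, by the root mean square difference of centred log2 CPM. Irgm2 came closest at 0.0444, then Irgm1 at 0.0542 and Trim30d at 0.0622, against a median of 0.567 over all genes compared. Irgm1 and Irgm2 encode immunity-related GTPases. Irgm2 averaged 54.2 CPM in WT cells, 156 CPM in Trex1-KO cells, 81.3 CPM under H151 and 83.7 CPM under SN-011. Of the 7 others among the 9 genes that reached this level, all but Stat4, the nearest was Jak2, at 0.446.

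For the gene lists that follow, the shares called over all tested genes were 9.27% higher and 7.11% lower in Trex1-KO against WT, 0.384% higher and 1.84% lower with H151, and 0.11% higher and 2.22% lower with SN-011. A count near these shares is not a result about a list.

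The partners of the STAT proteins included the other DNA-binding subunit of ISGF3. Irf9 had 87.8 and 81.2 CPM in the WT libraries, 129 and 129.8 CPM in those of Trex1-KO, 93.4 and 101 CPM after H151, and 108 and 110.0 CPM after SN-011, an order of groups like that of Stat2 at a smaller size. Irf9 rose by 0.61 ± 0.07 on the log2 scale in Trex1-KO (edgeR adjusted p = 1.78e-05) and fell by 0.41 ± 0.07 with H151 (adjusted p = 0.00266). With SN-011 the difference was -0.25 (adjusted p = 0.0788). Of 10 partners and adaptors 4 were called higher in Trex1-KO and 0 lower. Besides Irf9 these were Nmi, a STAT-interacting protein (0.77 ± 0.12), and the acetyltransferase coactivators Crebbp (0.28 ± 0.08) and Ep300 (0.24 ± 0.07), the last named after its value was seen. The calls on Crebbp and Ep300 (adjusted p = 0.0393 and 0.0353) were lost with total counts and by DESeq2.

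Of 21 target genes of ISGF3, 21 rose in Trex1-KO against WT, 21 fell with H151 and 20 fell with SN-011, with median log2 differences of 2.01, -1.11 and -1.05 against -0.00196, 0.00123 and 0.00875 over all genes. The list was drawn up with the interferon response of these libraries already known and is no independent evidence of its direction. Ifi44 stood at 13.6 and 10.1 CPM in WT cells, 183 and 176 CPM in Trex1-KO cells, 61.2 and 73.6 CPM under H151, and 68.6 and 74.0 CPM under SN-011. It had the largest rise of the list, 3.92 ± 0.12 on the log2 scale, followed by Oasl1, an oligoadenylate synthetase-like gene (3.80 ± 0.15), and Irf7, the transcription factor that amplifies interferon production (2.62 ± 0.12). With H151 the steepest falls were those of the Ifit genes, which encode proteins that bind foreign RNA, at -1.78 for Ifit2, -1.76 for Ifit1 and -1.72 for Ifit3. With SN-011 they were -1.60 for Ifit1, -1.58 for Ifit2 and -1.48 for Mx1, a gene of the dynamin-like GTPase family. The gene without a call with SN-011 was Bst2 (-0.28, adjusted p = 0.277), named after its value was seen. The H151 call on Bst2 and the SN-011 calls on Irf7, Isg15 and Rtp4 depended on the setting, as given below.

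**Figure D4:**
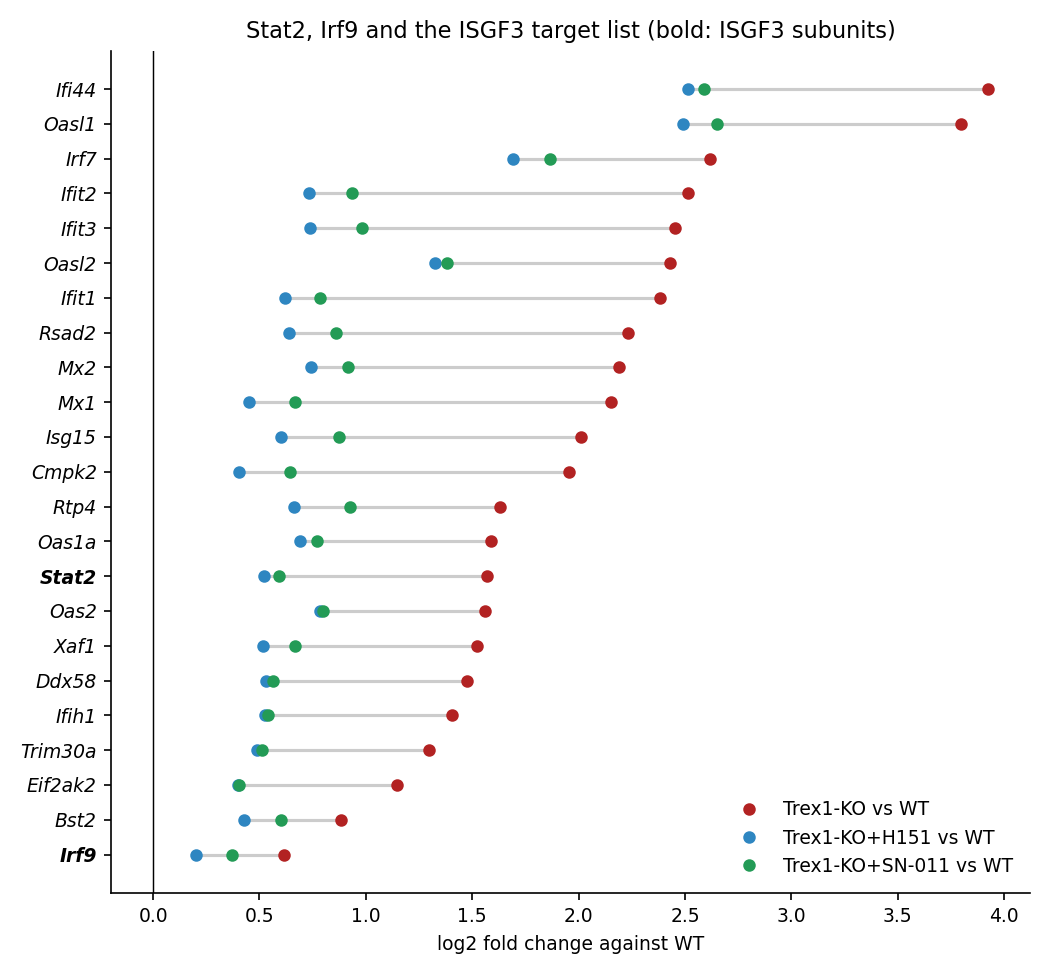
Log2 fold change against WT (horizontal axis) of Stat2, Irf9 and the 21 ISGF3 target genes in Trex1-KO (red), Trex1-KO+H151 (blue) and Trex1-KO+SN-011 (green), sorted by the Trex1-KO value. In every row the red point lies farthest right and both antagonist points remain to the right of 0, among the target genes from 0.40 for Eif2ak2 to 2.65 for Oasl1 with SN-011.

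As with Stat2, most of the target genes remained above WT with H151, and all 21 did with SN-011. Against WT, 18 of 21 were still called higher with H151, with a median log2 difference of 0.64, and 21 of 21 with SN-011, with a median of 0.80. The 3 without a call with H151 were Isg15 (0.60, adjusted p = 0.172), Mx1 (0.45, adjusted p = 0.0752) and Cmpk2 (0.40, adjusted p = 0.0924), named after their values were seen. For these 3 the libraries with H151 overlapped those of WT. Between the antagonists 0 of 21 were called by edgeR. All 21 point estimates were higher with SN-011, from 0.00439 for Eif2ak2 to 0.27 for Isg15. The libraries of the antagonist groups did not overlap for 3 of them, against 39.7% of all genes. The 21 genes share the same libraries, so their number adds no replicates. For Isg15 the low library was Trex1-KO+H151 replicate 1, at 18.6 CPM. Replicate 2 had 38.4 CPM, and the SN-011 libraries 36.0 and 33.5 CPM. For Eif2ak2 the lowest of these libraries was SN-011 replicate 1, at 95.4 CPM. The SN-011 libraries were also registered apart from those of H151.

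Of 40 cytokine receptor chains 30 could be tested, and in Trex1-KO 11 rose and 4 fell against WT. Most of these calls were lost without WT replicate 1, namely those on Ifnar2, Il6st, Il4ra, Il7r, Il15ra, Csf2rb2, Csf3r, Osmr and Lepr. Il2rg, the common gamma chain of the IL-2 family, rose most, by 1.23 ± 0.09 on the log2 scale, from 39.9 and 33.6 CPM in WT to 89.3 and 82.6 CPM. Osmr, the receptor of oncostatin M, fell by 1.13 ± 0.25 and Ghr, the growth hormone receptor, by 0.88 ± 0.20. The chains of the type I interferon receptor were named for their role after their values were seen. Ifnar2 rose in Trex1-KO against WT, by 0.24 ± 0.06 (adjusted p = 0.00881), and was also above WT in both antagonist groups (adjusted p = 0.0121 with H151 and 0.0144 with SN-011), and Ifnar1 was not called (0.06, adjusted p = 0.663). Of the 5 fibroblast markers 4 were also lower in the mean of Trex1-KO than of WT and Dcn was higher (2.17 and 2.998 CPM in WT and Trex1-KO), and their part was not tested.

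With H151, 1 of 30 receptor chains was called, Il7r, which was higher by 0.46 ± 0.10. With SN-011, 3 of 30 were called, all lower: Il21r (-0.51 ± 0.08), Il13ra1, a chain of IL-4 and IL-13 receptors (-0.51 ± 0.12), and Il2rg (-0.49 ± 0.09).

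Of 25 cytokine ligands 10 could be tested. Ifnb1 had at most 2 counts in a library, Ifng and Il12a at most 1, Il12b at most 7 and Il6 at most 8, and these went untested. In Trex1-KO 3 were called higher than in WT and 3 lower. The anti-inflammatory cytokine Il10 rose by 1.28 ± 0.21 on the log2 scale, from 3.02 and 2.91 CPM in WT to 7.55 and 6.86 CPM, and the others called higher were Il15 (0.51) and Ebi3 (0.37). The IL-6 family ligands Clcf1 and Lif fell by 1.44 ± 0.21 and 1.38 ± 0.26, as did Il7 (-1.54), while the same 4 of 5 fibroblast markers were lower, and their part was not tested. Il15, Ebi3 and Il7 are named after their values were seen. Neither antagonist group had a call among the 10 against Trex1-KO by edgeR.

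Of 20 negative regulators of the pathway 5 rose and 1 fell in Trex1-KO against WT. Usp18, which removes ISG15 from proteins and restrains the type I interferon receptor, followed the pattern of Stat2 at a larger size. It had 17.2 and 14.3 CPM in the WT libraries, 97.6 and 96.6 CPM in those of Trex1-KO, 31.4 and 48.2 CPM after H151, and 47.7 and 50.3 CPM after SN-011. Its log2 change was 2.63 ± 0.16 in Trex1-KO, -1.28 ± 0.14 with H151 and -0.99 ± 0.14 with SN-011.

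Ptprc, the leukocyte phosphatase CD45, rose by 0.58 ± 0.05 in Trex1-KO and fell by 0.24 ± 0.05 with SN-011. The other genes called higher were Socs1 (1.34, adjusted p = 0.0444), Ptpn6 (0.32) and Socs7 (0.32), named after their values were seen, and Socs2, an inhibitor of growth hormone signalling, fell by 1.06 ± 0.23. Usp18 was the 1 regulator called with H151, and Usp18 and Ptprc the 2 called with SN-011.

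**Figure D5:**
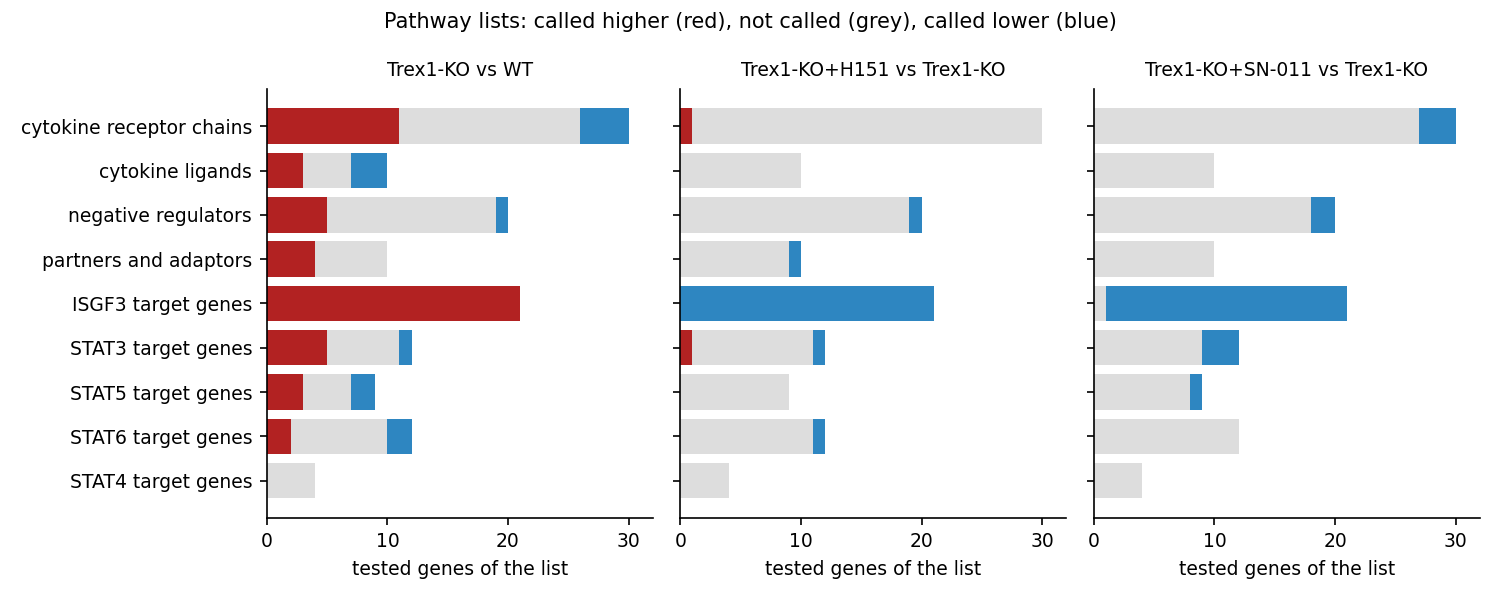
Number of tested genes (horizontal axis) in each of 9 gene lists around the Janus kinases and STATs that were called higher (red), called lower (blue) or not called (grey) in 3 comparisons. The ISGF3 targets are red throughout in the first panel (21 of 21) and almost wholly blue with either antagonist (21 and 20 of 21), and other lists are mixed or mostly grey.

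Of 12 STAT3 target genes 5 were called higher in Trex1-KO and 1 lower, with a median log2 difference of 0.09. Etv3, a transcriptional repressor (0.53 ± 0.07), the cyclin Ccnd1 (0.53 ± 0.10) and the survival factor Mcl1 (0.47 ± 0.05) rose most, with Bcl3 (0.41) and Sbno2 (0.21) the other genes called higher and Vegfa the one called lower (-0.23), these 3 named after their values were seen. Mcl1 fell with H151 (-0.27) and with SN-011 (-0.28), and Etv3 (-0.30, adjusted p = 0.0283) and Junb (-0.36, adjusted p = 0.0465) fell with SN-011, both short of a call with total counts (adjusted p = 0.0531 and 0.0752). Myc was higher with H151 (0.64 ± 0.15).

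Of 9 STAT5 target genes 3 were called higher in Trex1-KO and 2 lower. Bcl6, a transcriptional repressor, rose by 0.56 ± 0.09, and Pim1 (0.46) and Bcl2l1 (0.45), named after their values were seen, rose too. Socs2 and the cyclin Ccnd2 (-0.58 ± 0.10) fell. Among these genes Pim1, a survival kinase, was the 1 called with SN-011 (-0.55 ± 0.11), and 0 were called with H151 by edgeR.

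Of 19 STAT6 target genes 12 could be tested, and 2 were called higher and 2 lower in Trex1-KO. Chil3, a chitinase-like protein, had 0 and 14 counts in WT against 85 and 105 in Trex1-KO, a fitted log2 difference of 3.74 ± 0.52 that depends on the low WT counts, and the neutrophil markers rose with it, whose part was not tested. Pparg, a nuclear receptor of lipid metabolism, rose by 0.32 ± 0.09. The lectin gene Clec10a fell by 0.53 ± 0.09, and by a further 0.39 ± 0.09 with H151 (adjusted p = 0.0471), a call lost with total counts, the stricter filter, DESeq2, a fit of only those groups or without any 1 of their libraries. Il4ra, named after its value was seen, fell by 0.22. Retnla had at most 1 count in a library and Ccl17 at most 9, and they could not be tested. Of 7 STAT4 target genes 4 could be tested, and 0 were called by edgeR in any of the 3 comparisons, with Ifng and Tbx21 at no more than 1 count.

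Several of the calls named from the lists depended on the setting. In Trex1-KO against WT, those on Bcl3, Crebbp, Ebi3, Ep300, Ifnar2, Pparg, Sbno2, Socs1 and Socs7 were lost with total counts, and those on Bcl3, Crebbp, Ep300, Il4ra, Il7, Pparg, Sbno2, Socs1 and Socs7 by DESeq2. All of these, and the calls on Ghr, Osmr, Pim1, Socs2 and Vegfa, were lost without at least 1 of the single libraries. With H151, the calls on Clec10a, Il7r, Mcl1, Myc and the ISGF3 target Bst2 were lost without at least 1 library. That on Bst2 was also lost with the stricter filter and in a fit of only those groups. With SN-011, the calls on Il21r, Il13ra1, Il2rg, Etv3, Junb, Mcl1, Pim1 and Ptprc were lost without at least 1 library. So were those on the ISGF3 targets Irf7, Isg15 and Rtp4, the last named after its value was seen. The call on Il13ra1 was also lost with total counts and by DESeq2, and that on Isg15 by DESeq2.

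Over all lists, each gene taken once, 122 of 156 genes could be tested, the ISGF3 targets among them. In Trex1-KO 54 were called higher and 11 lower than in WT, where 9.27% and 7.11% of all tested genes were. With H151 2 were higher and 25 lower than in Trex1-KO, where 0.384% and 1.84% of all genes were, and with SN-011 0 were higher and 29 lower, where 0.11% and 2.22% were. The ISGF3 targets supplied 21 of the 54 higher in Trex1-KO, 21 of the 25 lower with H151 and 20 of the 29 lower with SN-011. That list was drawn up with the interferon response of these libraries known, so these totals are no independent evidence.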

How the data were processed

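RNA-Seq was analysed in 8 libraries of polyadenylated RNA from BMDMs. The authors trimmed paired reads with Trimmomatic, aligned them with hisat2 and counted uniquely mapped pairs per gene with featureCounts, according to the methods, while the submitters' processing notes name HISAT2, HTSeq and mm10. Versions, the annotation and the strand setting of the counting are not given in the sources used here. The deposited values are raw counts for 54532 Ensembl genes. Symbols and exons were taken from GENCODE mouse release 21 (GRCm38), which named 54409 of them and left 123 without a symbol. Promoter windows were taken from RefSeq (GRCm38.p6).

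The 9 genes, the gene lists and the marker lists were chosen with earlier results of these data known. Groups were read from the sample titles. Genes were kept with filterByExpr (minimum count 10, minimum total 15), scaled by TMM (factors 0.973 to 1.04), and all 8 libraries entered 1 quasi-likelihood fit in edgeR 4.0.16 (R 4.3.3) with a mean per group. Contrasts were compared by the two-sided F-test and Benjamini-Hochberg adjustment over all 14591 genes, and a gene with an adjusted p under 0.05 is said to be called. Standard errors and 95% intervals of log2 fold changes were derived from the F statistic and are approximate. The fit was tested on simulated data first. Libraries of a group differed beyond sampling noise, with a chi-square per gene between 3.22 and 6.54, so none was counted as a duplicate. A count was worth 0.0582 to 0.0849 CPM. Read pairs carry no molecular identifiers, so counting error is a lower limit of the true error.

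Named genes are the 9 genes and, for each list and each of the 3 contrasts with Trex1-KO, up to 3 called genes with the largest change, a mean log2 CPM of 2 or more and no overlap between the groups' libraries. The 3 genes most like a gene were sought for each of the 9 called in Trex1-KO against WT with at least a 1.5-fold change, which left Stat2. Any other gene was named after its value was seen. SN-011 libraries carry a treatment text of their own and, by their accession numbers, were registered apart from the other 6. Alternatives were other scalings, filters and tests (DESeq2 1.42.0, the edgeR exact test), a replicate block, fits of the compared groups alone and the omission of each library.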

Additional observations from a re-analysis of the deposited data

Results flagged for a closer look

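Of the receptor chains, 3 of 30 were called between the antagonists, where 23 of 14591 genes tested (0.158%) were called. All 3 were lower with SN-011 than with H151, as were all 23 calls over all genes, so this direction is not particular to receptor chains. The SN-011 libraries were registered apart, so a difference between deposits cannot be told apart from the treatment here. The antagonists were not told apart by any of the 9 STAT and Janus kinase genes. Il21r, the receptor chain of IL-21, was at 55.4 and 59.8 CPM with H151 and 39.6 and 39.4 CPM with SN-011, a log2 difference of -0.55 ± 0.08 (edgeR adjusted p = 0.0210). Csf2rb, the common beta chain of the GM-CSF, IL-3 and IL-5 receptors, was at 538 and 521 CPM with H151 and 384 and 399 CPM with SN-011 (-0.43 ± 0.06, adjusted p = 0.0117). Csf2rb2 was at 613 and 577 CPM with H151 and 474 and 472 CPM with SN-011 (-0.33 ± 0.06, adjusted p = 0.0455). Csf2rb and Csf2rb2 are near-identical neighbouring copies, so reads could have been split between them and the separate values are uncertain. All 3 calls were lost without either SN-011 library, where the calls over all genes fell to 2 and 11, while the log2 differences stayed close to their values. They were -0.55 and -0.54 for Il21r, -0.41 and -0.46 for Csf2rb, and -0.33 and -0.32 for Csf2rb2 without SN-011 replicate 1 and 2. The adjusted p for Il21r was 0.375 and 0.218 in the same order, that for Csf2rb 0.299 and 0.0988, and that for Csf2rb2 0.617 and 0.505. Csf2rb2 was also not called without Trex1-KO+H151 replicate 1 (0.188), under the stricter filter, with total counts or in a fit of the antagonist groups alone. Only the genes of the lists named in the report were screened in this way.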

How the results depend on the processing

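The calls on Stat2 held under every alternative except H151 against WT with a required 1.5-fold change. Counts of called genes among the 9 moved as follows. In Trex1-KO against WT (3) the count was 1 with total counts only, 1 when a 1.5-fold change was also required, and ran from 1 to 3 without single libraries (1 without WT replicate 2 or Trex1-KO replicate 1). With SN-011 against Trex1-KO (1) it was 2 when every gene with a count was tested, 2 with the replicate block, 2 in a fit of only those groups and 2 by the exact test, through Jak2 each time. With H151 against WT (2) it was 1 with total counts only, 1 in a fit of only those groups, 0 with the 1.5-fold requirement, and ran from 1 to 2 without single libraries (1 without either WT library or Trex1-KO+H151 replicate 1). The cause of these moves was not tested. Of the log2 changes of the 9 genes over all alternatives, 582 kept direction and side of the threshold, 12 lost a call, 4 gained one and 41 changed sign, the last all without a call. Of the counts called in the pathway lists, 242 stayed within 1.5 times and 28 moved further, among them these. In Trex1-KO against WT, partners went from 4 to 2 with total counts and with DESeq2, and STAT6 targets from 4 to 2 with DESeq2. With H151, the 1 STAT6 target was lost with total counts, the stricter filter and DESeq2. With SN-011, STAT3 targets went from 3 to 1 with total counts. Testing every gene with a count raised receptor chains from 1 to 4, STAT3 targets from 2 to 5 and STAT5 targets from 0 to 1 with H151. With SN-011 it raised receptor chains from 3 to 6, STAT3 targets from 3 to 5, and ligands, partners and STAT6 targets from 0 to 1 each. Between the antagonists it raised receptor chains from 3 to 5 and ISGF3 targets from 0 to 1.

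The replicate numbers of the titles were used as a block in 1 alternative. Deviations of same-numbered libraries correlated at 0.194 between Trex1-KO and Trex1-KO+H151, at -0.00554 between Trex1-KO and Trex1-KO+SN-011, at -0.0163 between the antagonist groups and at 0.00483 to 0.0609 with WT. The labels do not say what a number stands for, so the libraries share only a number. With the block, Jak2 with SN-011 had an adjusted p of 0.0413, and no other call among the 9 changed. Over all genes the block moved the calls from 2390 to 2611 in Trex1-KO against WT, from 325 to 412 with H151, from 340 to 436 with SN-011 and from 23 to 44 between the antagonists.

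Other all-gene counts also moved by over 1.5 times. Testing every gene with a count gave 525 with H151, 679 with SN-011 and 266 between the antagonists, and the exact test gave 570 with SN-011 and 74 between the antagonists, where DESeq2 gave 38. The 1.5-fold requirement left 1329 in Trex1-KO against WT, 161 with H151, 170 with SN-011, 8 between the antagonists, and 903 and 1001 against WT (1726 and 1714 without it). Without WT replicate 1 or 2 there were 1556 and 1583 in Trex1-KO against WT and 971 and 1091 with H151 against WT. With SN-011 against Trex1-KO there were 198 without Trex1-KO replicate 1 and 131 and 186 without SN-011 replicate 1 or 2. Against WT, SN-011 gave 956 without WT replicate 1 and 1055 and 909 without its own replicate 1 or 2. Between the antagonists there were 291 without H151 replicate 2 and 2 and 11 without SN-011 replicate 1 or 2.

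Signs changed: with H151 against Trex1-KO, Stat6 was 0.023 with total counts only and 0.00221 with the stricter filter. With SN-011 against Trex1-KO, Stat4 was 0.022 with total counts only and 0.00828 with the block. With H151 against WT, Tyk2 was -0.047 with total counts only and -0.00359 with every gene tested. With SN-011 against WT, Stat3 was -0.048 with total counts only, -0.00662 with every gene, -0.00146 in a fit of only those groups and -0.00138 by the exact test. In the same comparison Jak2 was -0.00505 with DESeq2 size factors, -0.057 with total counts only, -0.015 with every gene, -0.00787 with the stricter filter, -0.000315 with the replicate block, -0.00984 in a fit of only those groups, -0.00968 by the exact test and -0.00538 by DESeq2.

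Without single libraries, Stat4 ran from -0.38 to 0.41 in Trex1-KO against WT, from -0.29 to 0.51 with H151 and from -0.41 to 0.46 with SN-011 against Trex1-KO, from -0.45 to 0.21 between the antagonists and from -0.31 to 0.33 with SN-011 against WT. With H151 against Trex1-KO, Stat5b ran from -0.00169 to 0.032, Stat6 from -0.044 to 0.040 and Jak1 from -0.061 to 0.078. Stat5a ran from -0.081 to 0.078 with SN-011 against Trex1-KO. Between the antagonists, Stat5b ran from -0.00442 to 0.070 and Jak1 from -0.14 to 0.00432. Against WT, Jak1 ran from -0.099 to 0.044 and Tyk2 from -0.031 to 0.036 with H151, and Stat3 from -0.045 to 0.049 and Jak2 from -0.054 to 0.034 with SN-011. A group left with 1 library was assumed to vary like the others. At 13 to 30 counts, depth limits what can be said of Stat4.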
